A study of Mus musculus with 12 samples.

Results

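The genes of natural killer cells and cytotoxic lymphocytes were followed across lungs exposed to allergen, to ambient particles or to both. They are Gzma, Gzmb, Gzmk, Prf1, Nkg7, Klrg1, Klrd1, Klrk1, Ncr1 and Eomes. The 10 genes were chosen by symbol, and every probe set that the array annotation gives to 1 of these symbols alone was taken. This gave 12 probe sets of 45101 on the array, with 2 each for Prf1 and Eomes, and 10 of the 18194 genes that the annotation names. Where a gene had 2 probe sets, the brighter over all arrays stood for it.

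Natural killer cells and cytotoxic T cells kill a target cell by releasing granules onto it. Perforin opens the membrane of the target, and granzymes, a family of serine proteases, enter and start its death. Whether the granules are released depends on the balance of activating and inhibitory receptors, many of them lectin-like proteins of the Klr family, and T-box factors such as Eomes set up the program. In the lung these cells are best known for the defense against viruses and tumor cells.

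Whole lungs of male A/J mice, an inbred strain prone to airway hyperresponsiveness, were sampled on day 4 after the particle exposure, at an age of 8 to 10 weeks per the labels. OVA/PM mice were sensitized to ovalbumin (OVA), a protein allergen, with 0.4 mg/kg intraperitoneally on day 0, challenged with 30 mg/kg in the trachea on day 14, and then aspirated particulate matter (PM) from Baltimore air, 50 µl of a suspension of 10 mg/ml in PBS. OVA/PBS mice had the allergen alone, PBS/PM mice the particles alone, and PBS/PBS mice, labelled controls, neither. Each group held 3 arrays, each from the lungs of another animal. Whole lung RNA mixes all cell types, so that a change in the number of cytotoxic cells and a change in RNA per cell cannot be told apart.

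The group names carry a doubt. The fold values that the study gives for single genes, where checked, matched the arrays if OVA stands for PM and PM for OVA, and mostly not as labelled. That match was worked out by hand from tabulated ratios and was not recomputed with the analyses given here. The study's counts of changed genes go with the exchange as well, since it reports far more genes changed by PM than by OVA. Here, with another test and threshold, 12 probe sets were called higher in PBS/PM and 1953 in OVA/PBS, each against PBS/PBS. The macrophage counts of its lavage, set beside the macrophage markers given further on, go with the labels. Its lavage held more neutrophils with PM on day 4, while the neutrophil markers given further on were called higher in neither OVA/PBS nor PBS/PM. Their median changes against PBS/PBS were -0.78 in OVA/PBS and -2.45 in PBS/PM, and no marker passed. The names are thus not settled. OVA/PBS and PBS/PM therefore stand here for the arrays labelled OVA and the arrays labelled PM. The comparison of OVA/PM with PBS/PBS, and the interaction of the exposures, do not depend on these names. The descriptions of all 12 arrays say control animal, and the groups were taken from the titles.

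Values are log2 intensities after GCRMA, and differences are log2 fold changes. The median of all values, 4.93, served as a detection level. To be tested, a probe set had to reach it in every array of 1 group or the other. Between 49.6% and 50.4% of the probe sets of an array reached it. With 3 arrays a group, precision is limited by their number. In OVA/PM replicate 3 the spiked controls were bright, with BioB at 6.65 and BioC at 7.56, where the remaining 11 arrays stayed at or below 4.68 for BioB and 3.95 for BioC. The 3′ minus 5′ difference of actin, a sign of RNA quality, was 0.61 to 0.81 on the log2 scale in OVA/PM, 0.43 to 0.57 in OVA/PBS, 0.48 to 0.90 in PBS/PM and 0.41 to 0.50 in PBS/PBS, without overlap between OVA/PM and PBS/PBS. Its part in the results was not tested. Of the 12 probe sets 7 could be tested somewhere: those of Gzma, Gzmb, Nkg7, Klrg1, Klrd1 and Ncr1 and the brighter set of Prf1. Gzmk and both sets of Eomes lay under the level in all 12 arrays, the second set of Prf1 likewise, and Klrk1 reached it in 3 arrays. Symbols and not positions were used to find the genes, and of the receptors Klrg1, Klrd1 and Klrk1 lie on chromosome 6. Gzma and Gzmk lie on chromosome 13.

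RefSeq windows around the transcription start, 300 bases from 250 before to 50 after it, were found for 8 of the 10 genes (GRCm38.p6). Klrg1 and Klrd1 had no entry. The windows of the 3 granzymes and of Nkg7 are shown, because Gzma, Gzmb and Nkg7 carried the larger changes below while Gzmk was at the floor of the array. Gzma is at chr13:113100932-113101231 (minus strand), Gzmb at chr14:56262285-56262584 (minus strand), Gzmk at chr13:113180916-113181215 (minus strand) and Nkg7 at chr7:43436888-43437187 (plus strand). Each is written from 5′ to 3′ on the strand of its gene, and capitals mark matches, on either strand, to the T-box core GTGTGA and the RUNX core TGTGGT. The search did not find the 2 cores overlapping in these windows.
Gzma: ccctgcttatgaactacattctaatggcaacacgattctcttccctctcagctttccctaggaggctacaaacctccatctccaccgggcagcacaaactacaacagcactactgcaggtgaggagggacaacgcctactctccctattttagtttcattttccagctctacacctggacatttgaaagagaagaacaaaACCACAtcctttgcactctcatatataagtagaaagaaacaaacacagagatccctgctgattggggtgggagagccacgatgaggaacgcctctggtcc
Gzmb: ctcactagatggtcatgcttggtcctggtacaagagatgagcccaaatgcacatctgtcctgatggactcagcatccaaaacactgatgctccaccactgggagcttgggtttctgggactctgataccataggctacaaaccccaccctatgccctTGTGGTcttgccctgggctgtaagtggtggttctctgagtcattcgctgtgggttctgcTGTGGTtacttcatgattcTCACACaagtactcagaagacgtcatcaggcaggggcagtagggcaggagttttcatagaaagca
Gzmk: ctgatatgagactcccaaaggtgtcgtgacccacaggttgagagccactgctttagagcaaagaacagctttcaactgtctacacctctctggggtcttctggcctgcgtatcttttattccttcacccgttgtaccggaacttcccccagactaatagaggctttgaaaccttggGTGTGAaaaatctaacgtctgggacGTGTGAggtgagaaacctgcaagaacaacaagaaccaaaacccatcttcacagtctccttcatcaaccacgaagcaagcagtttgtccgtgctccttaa
Nkg7: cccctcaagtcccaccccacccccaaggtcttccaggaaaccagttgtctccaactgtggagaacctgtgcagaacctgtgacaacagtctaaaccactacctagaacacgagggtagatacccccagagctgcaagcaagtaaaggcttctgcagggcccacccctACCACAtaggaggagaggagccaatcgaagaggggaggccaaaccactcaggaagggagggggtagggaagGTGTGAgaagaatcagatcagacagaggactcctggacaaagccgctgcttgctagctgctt

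A T-box core was found in the windows of 4 of the 8 genes (Gzmb, Gzmk, Nkg7 and Ncr1), and in 14.5% of all 32851 windows of this length. A RUNX core was found in 6 of the 8 (Gzma, Gzmb, Prf1, Nkg7, Klrk1 and Ncr1), and in 16.8% of all windows. The STAT motif TTCNNNGAA matched in Gzmb and Nkg7, 2 of the 8, and in 8.30% of all windows. Such a match is a match of letters and shows no binding. Gzmk, with 2 T-box cores, was at the floor in every group, and Eomes held none of the 3 motifs.

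Gzma and Gzmb, the most abundant granzymes of mouse natural killer cells, were both above the level in all 12 arrays. Gzma, a tryptase-like granzyme, read 8.06, 8.61 and 8.45 in OVA/PM, 7.98, 7.68 and 7.84 in OVA/PBS, 8.83, 8.99 and 8.56 in PBS/PM and 6.76, 7.24 and 7.57 in PBS/PBS. Every exposed array lay above every PBS/PBS array, and the highest 2 of the 12 values were PBS/PM arrays. The group means ran PBS/PM 8.79, OVA/PM 8.37, OVA/PBS 7.83 and PBS/PBS 7.19, and only PBS/PM and OVA/PM overlapped among neighbours in that order.

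Gzmb, which cleaves caspases and Bid in the target cell, read 8.13, 9.03 and 8.80 in OVA/PM, 8.38, 7.43 and 8.07 in OVA/PBS, 6.60, 7.62 and 7.47 in PBS/PM and 5.52, 5.55 and 6.62 in PBS/PBS. It had the widest range of the 12 probe sets, 3.51 from the lowest to the highest array. The order of the means differed from that of Gzma: OVA/PM 8.66, OVA/PBS 7.96, PBS/PM 7.23 and PBS/PBS 5.90. Each neighbouring pair overlapped by at least 1 array, and PBS/PBS replicate 3 at 6.62 reached into the PBS/PM group.

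Gzmk, a granzyme of memory-like T cells, stayed between 2.17 and 2.29 in all 12 arrays, a spread of 0.11. Nothing can be read from it at this level. Prf1 encodes perforin. Its brighter probe set read 5.41, 5.82 and 5.69 in OVA/PM, 5.62, 5.53 and 5.95 in OVA/PBS, 6.67, 6.28 and 5.11 in PBS/PM and 4.02, 5.35 and 5.60 in PBS/PBS. PBS/PM and PBS/PBS each spread widely, with SDs of 0.81 and 0.85 against 0.21 in OVA/PM and 0.22 in OVA/PBS, and all neighbouring groups overlapped. The second probe set stayed between 2.39 and 2.51.

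Nkg7, a granule membrane protein needed for granule release, read 7.48, 7.98 and 7.57 in OVA/PM, 7.50, 6.98 and 7.68 in OVA/PBS, 7.36, 7.39 and 6.95 in PBS/PM and 5.59, 6.05 and 6.65 in PBS/PBS. All 9 exposed arrays lay above the 3 PBS/PBS arrays, while the 3 exposed groups overlapped in the order OVA/PM 7.68, OVA/PBS 7.38 and PBS/PM 7.23.

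Klrg1, an inhibitory receptor of mature natural killer cells and effector T cells, read 6.01, 5.89 and 5.38 in OVA/PM, 4.92, 5.57 and 4.74 in OVA/PBS, 6.34, 6.54 and 6.04 in PBS/PM and 4.51, 4.51 and 4.85 in PBS/PBS. The 3 PBS/PM arrays were the highest of the 12. The means were 6.30 in PBS/PM, 5.76 in OVA/PM, 5.08 in OVA/PBS and 4.62 in PBS/PBS, where all 3 arrays lay under the level. PBS/PM stood apart from OVA/PM without overlap, and the groups below it in this order overlapped. Klrd1 encodes CD94, the partner of the NKG2 receptors. It read 6.91, 6.40 and 7.03 in OVA/PM, 6.43, 6.25 and 6.62 in OVA/PBS, 6.73, 6.37 and 6.11 in PBS/PM and 5.37, 5.87 and 6.09 in PBS/PBS. All 9 exposed arrays again lay above PBS/PBS, and the exposed groups overlapped.

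Ncr1 encodes NKp46, an activating receptor that marks natural killer cells and some innate lymphoid cells. It read 5.60, 5.70 and 5.92 in OVA/PM, 5.71, 5.64 and 5.70 in OVA/PBS, 6.27, 5.98 and 5.69 in PBS/PM and 5.07, 5.47 and 5.56 in PBS/PBS. Its whole range was 1.20, the smallest of the 7 tested probe sets. Klrk1 encodes NKG2D, the receptor of stress-induced ligands. It read 3.82, 5.02 and 4.60 in OVA/PM, 5.37, 3.76 and 5.07 in OVA/PBS, 3.75, 3.4 and 3.26 in PBS/PM and 2.49, 3.01 and 3.4 in PBS/PBS. The OVA/PM and OVA/PBS arrays were all above the PBS/PM and PBS/PBS arrays, but at a level where no test was made.

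Eomes, a T-box transcription factor of natural killer and memory T cells, was dim in both probe sets. The brighter read 4.04, 3.97 and 3.97 in OVA/PM, 3.95, 4.30 and 4.49 in OVA/PBS, 4.0, 3.87 and 3.83 in PBS/PM and 2.70, 3.82 and 3.33 in PBS/PBS. The other read 4.60 in OVA/PM replicate 3 and between 3.19 and 3.54 in the remaining arrays. Of the 10 genes, the granule genes Gzma, Gzmb, Prf1 and Nkg7 and the receptors Klrd1 and Ncr1 reached the level in at least 11 arrays, Klrg1 in 7, Klrk1 in 3, and Gzmk and Eomes in 0.

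**Figure D1:**
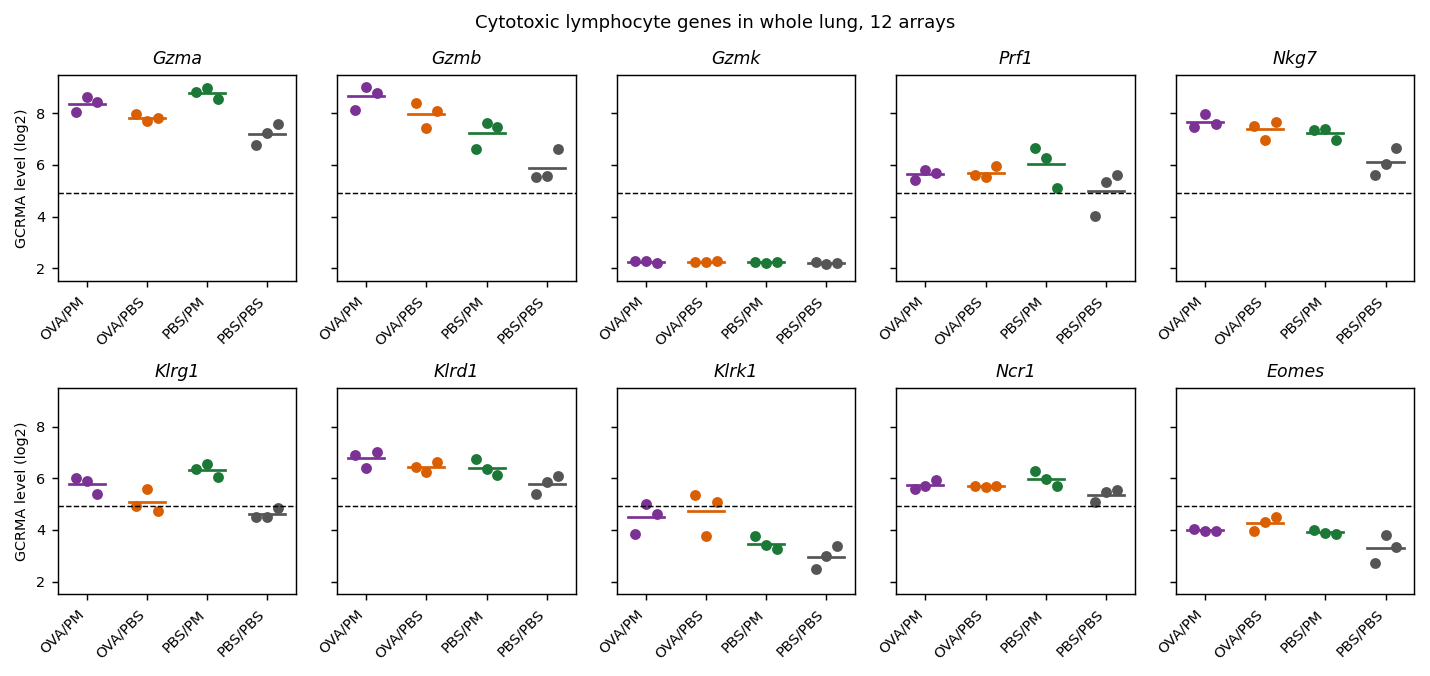
GCRMA level (log2) of the 10 genes in each of the 12 arrays, with OVA/PM, OVA/PBS, PBS/PM and PBS/PBS from left to right; points are arrays (1 animal each), bars are group means and the dashed line is the level of 4.93. Gzmb was highest in OVA/PM (mean 8.66) and Klrg1 and Gzma in PBS/PM (6.30 and 8.79), while Gzmk stayed at 2.29 or below.

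Against PBS/PBS, combined exposure to OVA and PM raised 4 of the 5 genes that reached the level in every array of both groups: Gzmb, Nkg7, Gzma and Klrd1. Of the other 2 tested genes, which entered only through OVA/PM, Klrg1 passed and Prf1 did not. Over all 22538 probe sets tested, 10.9% were called higher in this comparison and 10.9% lower, at an adjusted p under 0.05 (limma, Benjamini-Hochberg). Gzmb showed the largest change of the 7, 2.76 (SE 0.36, 95% interval 1.88 to 3.63, adjusted p = 0.005 from limma), which is 6.76-fold. For Nkg7 the rise was 1.58 (SE 0.28, adjusted p = 0.0126 from limma). For Gzma it was 1.18 (SE 0.24, adjusted p = 0.0186). Klrd1 rose by 1.0 (SE 0.24, adjusted p = 0.0311), or 2.0-fold. Klrg1 was under the level in all 3 PBS/PBS arrays and could be tested only because it was high in OVA/PM. Its fold is therefore a bound of at least 1.78, and limma gave an adjusted p of 0.0109.

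Prf1 and Ncr1 did not pass, at 0.65 (95% interval -0.33 to 1.62, adjusted p = 0.29 from limma) and 0.37 (95% interval -0.01 to 0.76, adjusted p = 0.144). The arrays of 6 of the 7 genes did not overlap, all higher in OVA/PM, and this held for 21.3% of all probe sets. Klrg1, which entered only through OVA/PM, is in this count. With Klrg1 at its bound, the median change of the 7 was 1.0, against -0.03 over all probe sets tested. Among the genes under the filter, Klrk1 was 1.52 higher in OVA/PM with arrays that did not overlap (adjusted p = 0.0786 from limma without the filter).

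The calls differed in how far they rested on single arrays. Gzmb and Klrg1 passed with any 1 of the 6 arrays left out (highest adjusted p 0.0248 and 0.0475 from limma). Nkg7 lost its call without PBS/PBS replicate 2 (adjusted p = 0.05024). Gzma lost it without PBS/PBS replicate 2, OVA/PM replicate 2 or OVA/PM replicate 3, with an adjusted p of at most 0.0613. Klrd1 lost it without PBS/PBS replicate 1, PBS/PBS replicate 2, OVA/PM replicate 1 or OVA/PM replicate 3 (at most 0.0969). The number of genes called lay between 2, without PBS/PBS replicate 2, and 5, and no fold change of the 5 genes turned its sign. Without the filter, Gzma and Klrd1 did not pass (adjusted p = 0.0506 and 0.078).

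OVA alone against PBS/PBS raised 2 of the 6 genes tested, both among the 5 that reached the level in every array, where 8.68% of all 22498 probe sets were called higher. Gzmb was 2.06 higher in OVA/PBS (SE 0.37, 95% interval 1.15 to 2.98, adjusted p = 0.022 from limma), or 4.18-fold. Nkg7 was 1.29 higher (SE 0.31, 95% interval 0.54 to 2.03, adjusted p = 0.0379), or 2.44-fold. Both calls were lost without PBS/PBS replicate 1 or 2 and without OVA/PBS replicate 1 or 3, with adjusted p up to 0.0867 for Gzmb and 0.125 for Nkg7 in these limma fits. Both were also lost without the filter (adjusted p = 0.0545 and 0.0906).

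Gzma and Klrd1 did not pass in OVA/PBS, at 0.64 and 0.65 (95% intervals 0.13 to 1.16 and 0.16 to 1.15, adjusted p = 0.0788 and 0.069 from limma), although none of their arrays overlapped with PBS/PBS. Ncr1 and Prf1 were at 0.32 and 0.71 (adjusted p = 0.149 and 0.249). In all, 5 of the 6 genes had arrays that did not overlap and were higher in OVA/PBS, as 20.8% of all probe sets did. Klrg1 was not tested, as only 1 of the OVA/PBS arrays reached the level. Its OVA/PBS and PBS/PBS arrays overlapped.

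The arrays labelled PM alone gave few calls against PBS/PBS over the whole array, 0.0539% of 22246 probe sets higher, and Klrg1 was 1 of these 12. The study reports a strong effect of PM on lung expression, by another test and threshold, so this small count bears on the doubt over the names. Klrg1 was under the level in all 3 PBS/PBS arrays and could be tested only because it was high in PBS/PM. It is given as a bound, at least 2.59-fold higher, with an adjusted p of 0.04999 from limma, at the threshold. The call was lost with any 1 of the 6 arrays left out (adjusted p up to 0.252), without the filter (0.145), with an offset of 16 (0.0691) and with an intensity trend (0.05004). Of the 5 genes that reached the level in every array of both groups, 0 passed.

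Gzma had a change of 1.60 in PBS/PM (SE 0.22, 95% interval 1.06 to 2.14), or 3.04-fold, and did not pass (adjusted p = 0.129 from limma). In a fit of all 4 groups, which pools the spread of the 12 arrays, Gzma and Klrg1 both passed (adjusted p = 0.0115 and 0.0173). Gzmb, Nkg7, Prf1, Klrd1 and Ncr1 were 1.33, 1.14, 1.03, 0.62 and 0.61 higher in PBS/PM, with adjusted p between 0.397 and 0.672 from limma. The unadjusted p was under 0.05 for 6 of the 7, all but Prf1, and for 3.20% of all probe sets in this direction. Arrays of 5 of the 7 did not overlap, higher in PBS/PM, as for 6.87% of all probe sets. Klrg1, which is in both counts, and Prf1, which is in neither, entered the test only through PBS/PM. With Klrg1 at its bound, the median change of the 7 was 1.14, against 0.01 over all probe sets.

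**Figure D2:**
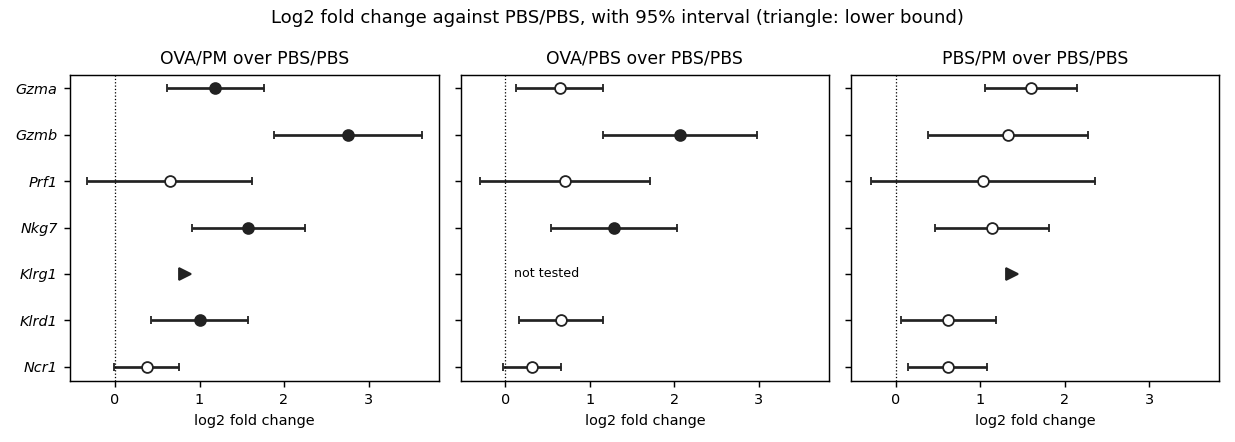
Log2 fold change (x axis) of the 7 tested genes in OVA/PM, OVA/PBS and PBS/PM, each over PBS/PBS, with the 95% interval from limma; filled symbols passed an adjusted p of 0.05, and triangles are lower bounds for Klrg1, whose PBS/PBS arrays were under the level. Gzmb had the largest change in OVA/PM (2.76) and OVA/PBS (2.06), Gzma was at 1.60 in PBS/PM, the bounds for Klrg1 were 0.83 in OVA/PM and 1.37 in PBS/PM, and the 3 panels share the PBS/PBS arrays.

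These 3 comparisons share the PBS/PBS arrays, which differed among themselves. PBS/PBS replicate 1 was the lowest of all 12 arrays for 6 of the 7 tested genes, and PBS/PBS replicate 3 was the highest of its group for 7 of 7. The mean log2 level of the 10 genes was 4.43, 4.9 and 5.19 in PBS/PBS replicates 1, 2 and 3, against 5.77 to 6.07 in OVA/PM, 5.54 to 5.84 in OVA/PBS and 5.52 to 5.88 in PBS/PM. T cell markers moved alike in these control arrays, with means of 5.14, 5.62 and 6.22, and the actin 3′ minus 5′ difference was 0.41, 0.43 and 0.50 in the same arrays. Their part in the results was not tested.

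Comparisons that leave out PBS/PBS showed where the exposed groups differed. Gzma and Klrg1 were lower in OVA/PBS than in PBS/PM, and these were 2 of the 7 genes tested, where 1.96% of all 22404 probe sets were called lower. Gzma differed by -0.96 (SE 0.14, 95% interval -1.30 to -0.62, adjusted p = 0.0356 from limma). Klrg1 entered this test only through PBS/PM, where it was high, since 1 of its 3 OVA/PBS arrays reached the level. It differed by -1.23 (SE 0.24, 95% interval -1.82 to -0.64, adjusted p = 0.0472). The arrays of both genes did not overlap, as for 21.3% of all probe sets in this direction. With the names exchanged the same differences have the opposite sign. Both calls stood without OVA/PBS replicate 2 and were lost without any other 1 of the 6 arrays (adjusted p at most 0.158 for Gzma and 0.169 for Klrg1). Both were also lost without the filter (0.0855 and 0.114).

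The other 5 genes did not pass between OVA/PBS and PBS/PM. Gzmb was 0.73 higher in OVA/PBS (95% interval -0.11 to 1.57, adjusted p = 0.205 from limma). Nkg7 and Klrd1 were 0.15 and 0.03 higher, with 95% intervals from -0.37 to 0.67 and from -0.41 to 0.47. Prf1 and Ncr1 were lower, at -0.32 and -0.30 (adjusted p = 0.606 and 0.235). These intervals leave room for differences of up to 1.57 for Gzmb.

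OVA/PM was set against each exposure alone. Against PBS/PM, only Gzmb of the 7 genes passed, at 1.43 (SE 0.33, 95% interval 0.63 to 2.23, adjusted p = 0.039 from limma), or 2.69-fold, where 7.13% of all 22428 probe sets were called higher. The call stood without OVA/PM replicate 1 and was lost without any other 1 of the 6 arrays (adjusted p at most 0.11), and without the filter (0.112). Klrg1 was lower in OVA/PM, with arrays that did not overlap, at -0.54 (adjusted p = 0.136 from limma), and 19.2% of all probe sets were lower without overlap. Gzma was at -0.42 (95% interval -0.85 to 0.01, adjusted p = 0.179), and Nkg7 was 0.44 higher with arrays that did not overlap (adjusted p = 0.162), as 17.3% of all probe sets were.

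Against OVA/PBS, 0 of 7 genes passed in OVA/PM, where 0.125% of all 22379 probe sets were called higher, and 2 of the 7 (Gzma and Klrg1) had an unadjusted p under 0.05 from limma, higher in OVA/PM, as 4.81% of all probe sets had. Klrg1, which entered only through OVA/PM, was 0.69 higher in OVA/PM (95% interval 0.06 to 1.31, adjusted p = 0.555). Gzma was 0.54 higher (0.14 to 0.94, adjusted p = 0.479) and Gzmb 0.69 (-0.06 to 1.45, adjusted p = 0.578). Of the 3, Gzma alone had arrays that did not overlap, as 8.57% of all probe sets did in this direction. With the names exchanged, this comparison and the one before it change places.

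The interaction asks whether the change with PM differed between OVA mice and PBS mice, and it is the same under an exchange of the names. None of the 7 genes passed (0 of 7, against 0.0132% of 22688 probe sets in each direction), and 3 of them (Gzma, Klrg1 and Ncr1) had an unadjusted p under 0.05 from limma, as 2.19% of all probe sets had in the negative direction. All 7 estimates were negative: on the log2 scale, OVA/PM was under the sum of the 2 separate changes. They ran from -1.09 for Prf1 (95% interval -2.47 to 0.28) to -0.28 for Klrd1 (-0.99 to 0.44), and their median was -0.84, against 0.01 over all probe sets. The negative sign was not particular to them. Among lists given further on, 9 of 10 T cell markers (median -0.35) and 9 of 10 cytokine signals (-0.39) were negative. So were 5 of 6 macrophage markers (-0.35), but 4 of 8 further receptors and adaptors and 0 of 3 neutrophil markers. Gzma was at -1.06 (SE 0.30, 95% interval -1.72 to -0.40, adjusted p = 0.583 from limma), Klrg1 at -1.0 (SE 0.33, adjusted p = 0.672) and Ncr1 at -0.56 (SE 0.23, adjusted p = 0.77). All 7 estimates hold the same 3 PBS/PBS arrays, PBS/PBS replicate 1 was low for 6 of these genes, and Klrg1 was under the level in all 3. The estimate of Klrg1 and the median of the 7 use its fitted values, not a bound.

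**Figure D3:**
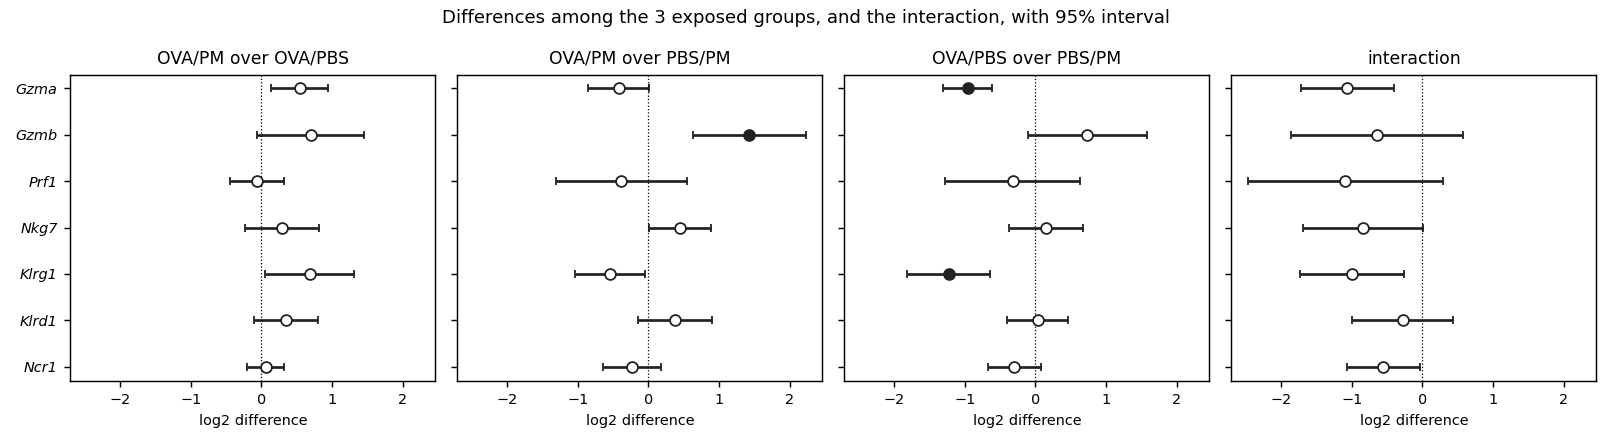
Log2 difference (x axis) of the 7 tested genes for OVA/PM over OVA/PBS, OVA/PM over PBS/PM, OVA/PBS over PBS/PM and the interaction, with the 95% interval from limma; filled points passed an adjusted p of 0.05. Gzmb lay at 1.43 in OVA/PM over PBS/PM, and Gzma and Klrg1 at -0.96 and -1.23 in OVA/PBS over PBS/PM.

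Over the 12 arrays, the 7 tested genes were positively correlated in all 21 pairs, with Pearson's r between 0.39 (Gzmb and Klrg1) and 0.92 (Prf1 and Ncr1) and a median of 0.70. The arrays share their groups, so the same was computed after subtraction of the group means. It then ran from -0.19 (Gzmb and Klrg1) to 0.91 (Prf1 and Ncr1), with a median of 0.51, and 19 of the 21 pairs were positive. Gzma and Nkg7 had r = 0.88 within groups, and Klrg1 had at most 0.21 with any other gene. These are descriptions over 12 arrays.

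The probe sets most like the 7 genes, by Pearson's r with their mean z-score over the 12 arrays among 34946 candidates, were Cldn22 (0.91), 2 sets of AI504432 (0.91 each), Spata5 (0.89), Ciita, Mgl2, Rnase6 and Fam83e (0.88 each), and Retnla and Chsy1 (0.87 each). Ciita is the master regulator of MHC class II genes, Mgl2 a lectin of dendritic cells and macrophages, and Retnla a marker of alternatively activated macrophages. None of these 10 is a gene of the killing machinery.

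Further genes tied to the work of these cells were taken from fixed lists: receptors, signals, transcription factors, effectors, ligands and homing genes. Many of them are expressed by other cell types as well, and which cells gave their RNA was not tested. They are counted as measured in OVA/PM, OVA/PBS and PBS/PM, each against PBS/PBS. Where a gene reached the level in every array of the exposed group but not of PBS/PBS, it could be tested only because it was high there, and such risers are counted apart. The medians are of fitted changes over the genes tested in each comparison, which differ, such genes included. Of further receptors and adaptors, 5 of 8 tested genes rose in OVA/PM, 2 of 6 in OVA/PBS and 0 of 5 in PBS/PM, with median changes of 1.39 in OVA/PM, 0.99 in OVA/PBS and 0.11 in PBS/PM. Over all probe sets tested, the median change was -0.03 in OVA/PM, -0.05 in OVA/PBS and 0.01 in PBS/PM, and 10.9%, 8.68% and 0.0539% were called higher. Of the risers, 2 in OVA/PM (Cd244a and Slamf7) entered only through that group. The mean level of the list was 5.58 to 5.91 in OVA/PM, 5.31 to 5.65 in OVA/PBS, 5.09 to 5.21 in PBS/PM and 4.77 to 5.18 in PBS/PBS, where PBS/PM overlapped. Klrc1, the NKG2A partner of Klrd1, averaged 7.53 in OVA/PM and 6.43 in PBS/PBS, a rise of 1.10 (adjusted p = 0.0254 from limma), and it was 0.61 higher in PBS/PM (adjusted p = 0.584). The other risers in OVA/PM were Cd244a, Slamf7, Fcer1g and Fcgr3, named after their values were seen, and macrophages express the last 2 as well. Fcer1g and Fcgr3 were also the only risers in OVA/PBS, where Klrc1 did not pass at 0.70 (adjusted p = 0.104 from limma). Cd244a averaged 6.21 in OVA/PM and 4.52 in PBS/PBS. Slamf7 averaged 5.93 in OVA/PM and 3.75 in PBS/PBS. The PBS/PBS means of Cd244a and Slamf7 lay under the level. Klrc2, Klre1, Cd160, Klra8 and Klrc3 were dim in every group, with means of 3.32 or less.

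Of the cytokine signals that sustain these cells, 3 of 10 genes rose in OVA/PM, 1 of 10 in OVA/PBS and 0 of 9 in PBS/PM, with median changes of 0.38, 0.56 and 0.09. Of these risers 1 in OVA/PM entered only through that group. Il2rb, the receptor chain shared by IL-2 and IL-15, averaged 6.94 in OVA/PM, 6.83 in OVA/PBS, 6.30 in PBS/PM and 5.81 in PBS/PBS. It rose by 1.13 in OVA/PM and 1.02 in OVA/PBS (adjusted p = 0.0296 and 0.0482 from limma) and was 0.49 higher in PBS/PM (adjusted p = 0.663). Il15, Il15ra, Il18, Il18r1 and Il18rap did not pass in any of the 3 comparisons, with changes against PBS/PBS between -0.52 (Il18 in OVA/PM) and 1.20 (Il18rap in OVA/PM).

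Among transcription factors, 2 of 7 rose in OVA/PM, 2 of 7 in OVA/PBS and 0 of 7 in PBS/PM, with median changes of 0.56, 0.01 and 0.18. Id2 and Runx3, which act in the development of natural killer and CD8 T cells, were the risers in both. Runx3 averaged 7.40 in OVA/PM, 7.42 in OVA/PBS, 5.87 in PBS/PM and 5.68 in PBS/PBS, with changes of 1.72 and 1.73 in OVA/PM and OVA/PBS (adjusted p = 0.00652 and 0.0161 from limma). Tbx21, which encodes T-bet, averaged 5.31 in OVA/PM, 4.91 in OVA/PBS, 4.91 in PBS/PM and 3.81 in PBS/PBS and was not tested. Nfil3 and Prdm1 did not pass against PBS/PBS.

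Of other cytotoxic effectors, 6 of 11 tested genes rose and 1 fell in OVA/PM, 3 of 10 rose in OVA/PBS and 0 of 9 changed in PBS/PM, with median changes of 0.52, 0.39 and 0.07. Of the risers, 3 in OVA/PM and 1 in OVA/PBS entered only through the exposed group, Ctsw in OVA/PM among them. The other risers were Ccl3, Ccl4, Ctsc, Serpinb9 and Rab27a in OVA/PM, and the 3 in OVA/PBS were Ccl3, Ccl5 and Ctsc. They were named after their values were seen. Ctsw, a cathepsin of cytotoxic lymphocytes, averaged 7.28 in OVA/PM, 7.05 in OVA/PBS, 5.97 in PBS/PM and 5.59 in PBS/PBS. It rose by 1.69 in OVA/PM (adjusted p = 0.0227 from limma), and the changes of 1.46 in OVA/PBS and 0.38 in PBS/PM did not pass. Ifng, Fasl, Gzmm, Gzmc and Gzmd were dim in every group, with means of 3.46 or less. The gene that fell was Unc13d, which primes granules for release, at -0.79 in OVA/PM (adjusted p = 0.0403), named after its value was seen.

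Of ligands for the receptors, Cd48, which binds the receptor 2B4, rose by 1.46 in OVA/PM and 1.27 in OVA/PBS (adjusted p = 0.00698 and 0.0195 from limma) and was 0.48 higher in PBS/PM (adjusted p = 0.652). It was 1 of 3 ligands tested, and the list had median changes of 0.15 in OVA/PM, -0.0038 in OVA/PBS and 0.08 in PBS/PM. Cdh1, E-cadherin and the ligand of Klrg1, averaged 13.50 in OVA/PM, 13.35 in OVA/PBS, 13.43 in PBS/PM and 13.35 in PBS/PBS and did not pass. Of the homing genes, 3 of 7 rose and 1 fell in OVA/PM, 2 of 7 rose in OVA/PBS and 0 of 5 changed in PBS/PM, with median changes of 0.92, 1.02 and 0.23. All 3 risers in OVA/PM (Cxcr3, Cxcl9 and Cxcl10) and both in OVA/PBS entered only through the exposed group. Cxcr3 rose by 1.41 in OVA/PM (adjusted p = 0.0348). Its ligand Cxcl9 averaged 10.28 in OVA/PM, 9.78 in OVA/PBS, 5.26 in PBS/PM and 2.98 in PBS/PBS. Another Cxcr3 ligand, Cxcl10, averaged 10.62 in OVA/PM, 10.55 in OVA/PBS, 5.90 in PBS/PM and 4.41 in PBS/PBS. Both PBS/PBS means lay under the level. Cx3cl1 fell by 0.66 in OVA/PM (adjusted p = 0.00854).

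Markers of other cells moved with the exposures as well. Of T cell markers, 5 of 9 rose in OVA/PM, 6 of 9 in OVA/PBS and 0 of 7 in PBS/PM, with median changes of 1.44, 1.09 and 0.31. Of these risers, 2 in OVA/PM and 3 in OVA/PBS entered only through the exposed group. Their mean log2 level was 6.81 to 7.06 in OVA/PM, 6.78 to 7.34 in OVA/PBS, 5.84 to 6.08 in PBS/PM and 5.14 to 6.22 in PBS/PBS. Their summed linear level was 2078 to 2619 in OVA/PM, 2076 to 2939 in OVA/PBS, 1022 to 1210 in PBS/PM and 619 to 1437 in PBS/PBS, and of 11 markers Trat1 alone, named for this, lay under 4.93 in all arrays. Cd3d, a chain of the T cell receptor complex, rose by 1.44 in OVA/PM and 1.5 in OVA/PBS (adjusted p = 0.0156 and 0.0256 from limma) and was 0.22 higher in PBS/PM (adjusted p = 0.871). In PBS/PM, where Gzma, Prf1, Klrg1 and Ncr1 had their highest means, the mean level of T cell markers overlapped with PBS/PBS replicate 3 (6.22) alone. PBS/PBS replicates 1 and 2 were lower, at 5.14 and 5.62. All 7 T cell markers tested in PBS/PM had positive changes, and their part in the cytotoxic genes was not tested. Of macrophage markers, 5 of 6 rose in OVA/PM, 4 of 6 in OVA/PBS and 0 of 6 in PBS/PM, with median changes of 1.43 in OVA/PM, 1.33 in OVA/PBS and 0.21 in PBS/PM. Their mean level was 11.03 to 11.62 in OVA/PM, 11.19 to 11.64 in OVA/PBS, 9.94 to 10.56 in PBS/PM and 9.90 to 10.27 in PBS/PBS.

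Neutrophil markers did not pass in any of the 3 comparisons and spread widely, from 9.01 to 10.75 in OVA/PM, 8.53 to 11.54 in OVA/PBS, 7.74 to 9.38 in PBS/PM and 9.08 to 11.36 in PBS/PBS. Their median changes were -0.66 in OVA/PM, -0.78 in OVA/PBS and -2.45 in PBS/PM, where all 3 tested were lower. Of B cell markers 1 of 4 rose in OVA/PM and 0 of 4 in OVA/PBS and PBS/PM. Of the eosinophil markers Prg2, Epx, Ccr3 and Il5ra lay under the level in all arrays. Of the ILC2 markers only Rora was tested, and of the mast cell and basophil markers Tpsb2 fell in OVA/PM (1 of 3), tested only through PBS/PBS. Striated muscle genes stood lower in OVA/PM, with a mean level of 5.18 to 8.13, against 9.20 to 10.56 in OVA/PBS, 8.96 to 10.79 in PBS/PM and 9.38 to 11.64 in PBS/PBS, and 4 of 6 fell against PBS/PBS, 2 of them tested only through PBS/PBS. The markers of lung tissue lay between 14.22 and 14.31 in OVA/PM, 14.30 and 14.42 in OVA/PBS, 14.50 and 14.58 in PBS/PM and 14.55 and 14.61 in PBS/PBS. The part of these cell types in the levels of the cytotoxic genes was not tested.

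**Figure D4:**
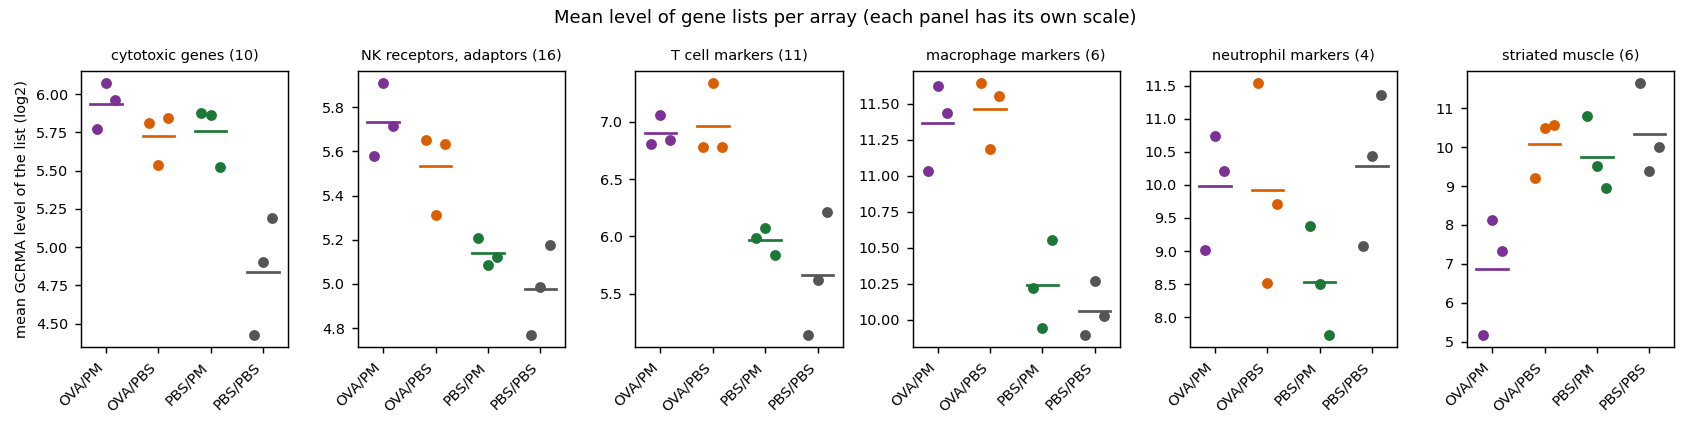
Mean GCRMA level (log2) per array of the 10 cytotoxic genes, further natural killer receptors and adaptors, and markers of T cells, macrophages, neutrophils and striated muscle, with OVA/PM, OVA/PBS, PBS/PM and PBS/PBS from left to right; points are arrays, bars are group means, and each panel has its own scale. The cytotoxic genes were above PBS/PBS in all 3 exposed groups. In PBS/PM the further natural killer receptors and adaptors and the T cell and macrophage markers overlapped with PBS/PBS. For the receptors and adaptors and for the T cell markers, PBS/PBS replicate 3 alone made the overlap. Of the 16 receptors and adaptors, 8 lay under 4.93 in all arrays.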

How the data were processed

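Total RNA of 12 whole lungs was measured on Affymetrix mouse arrays, 1 array per animal, and the authors deposited GCRMA values on the log2 scale (background correction by probe composition, quantile normalization over the arrays, median polish). The processing notes also name MAS5, without a version. The columns were used as deposited, grouped by their titles. No 2 of the 66 pairs of arrays were identical.

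Each pair of groups had its own limma fit (limma 3.58.1, R 4.3.3), with moderated statistics, p-values adjusted by Benjamini-Hochberg across every probe set tested and a threshold of 0.05. The 64 control probe sets stayed out. Testing required 4.93 or more in every array of either group, in place of detection calls. limma stands in for SAM, the test of the methods. The interaction was a contrast in a fit of the 4 groups. The smallest two-sided p of an exact permutation of 3 against 3 arrays is 0.1, so none was used. Where a group lay wholly under 4.93, the fold was computed with 4.93 as its level and is a lower bound. The interaction and the list medians use fitted values instead. Symbols follow the array annotation, in which 34958 probe sets had 1 symbol, 932 several and 9211 none.

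The genes named are all 10 members, up to 6 genes per list in written order, and the 10 probe sets most like the members. Outside this rule, Cd244a, Slamf7, Fcer1g, Fcgr3, Ccl3, Ccl4, Ccl5, Ctsc, Serpinb9, Rab27a, Unc13d and Trat1 were named after their values were seen. The members and lists were chosen with earlier results of these data known. The fits were tested on simulated data. Alternatives varied the filter (none, 75th percentile), the scale (an offset of 16, another quantile normalization), the model (replicate block, all groups together, intensity trend), the probe set, the 2 group names and the arrays left out.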

Additional observations from a re-analysis of the deposited data

How the results depend on the processing

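The counts of cytotoxic genes called were 5 (OVA/PM against PBS/PBS), 2 (OVA/PBS against PBS/PBS), 1 (PBS/PM against PBS/PBS), 0 (OVA/PM against OVA/PBS), 1 (OVA/PM against PBS/PM), 2 (OVA/PBS against PBS/PM) and 0 (interaction). In this order, 10.9%, 8.68%, 0.0539%, 0.125% and 7.13% of all probe sets were called higher, 1.96% lower, and 0.0132% in each direction. Klrg1 is among the genes called in OVA/PM and PBS/PM against PBS/PBS and in OVA/PBS against PBS/PM. It was tested there only through the group where it was high. Without the filter, which puts more probe sets into the adjustment, the counts were 3, 0, 0, 0, 0, 0 and 0. With an offset of 16 on the linear scale, or with an intensity trend, the count for PBS/PM against PBS/PBS was 0, and in the fit of all 4 groups it was 2. The cause of these changes was not tested. With the names OVA and PM exchanged, the count was 1 for OVA/PBS and 2 for PBS/PM against PBS/PBS, and 1 and 0 for OVA/PM against OVA/PBS and against PBS/PM. The filter at the 75th percentile (8.65) left 0 members tested, and the second probe sets of Prf1 and Eomes did not pass the filter, so neither gave a value.

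Array numbers do not pair the arrays: among 18 same-numbered pairs from different groups, deviations correlated over 0.1 in 3 (median r -0.06), and 2 of 12 arrays correlated best with their own number. With the replicate block, the counts were 0 for OVA/PBS and 0 for PBS/PM against PBS/PBS, and 1 for OVA/PBS against PBS/PM, and the other counts were within 1.5 times the unblocked ones.

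With each array left out in turn, the counts ran from 2 to 5 for OVA/PM, from 0 to 3 for OVA/PBS and from 0 to 0 for PBS/PM against PBS/PBS, from 0 to 0 for OVA/PM against OVA/PBS, from 0 to 1 for OVA/PM against PBS/PM, from 0 to 3 for OVA/PBS against PBS/PM and from 0 to 0 for the interaction. Over all probe sets, the calls ran from 2188 to 4491, 407 to 5284 and 3 to 11 against PBS/PBS. For the rest, in this order, they ran from 9 to 63, 1367 to 1870, 4 to 3587 and 4 to 11. Leaving out an array turned the sign of some values near 0. In OVA/PM against OVA/PBS, Prf1 ran from -0.15 to 0.061 (positive without OVA/PBS replicate 3 or OVA/PM replicate 1) and Ncr1 from -0.032 to 0.129 (negative without OVA/PM replicate 3). In OVA/PBS against PBS/PM, Prf1 ran from -0.778 to 0.0022 (positive without PBS/PM replicate 1) and Klrd1 from -0.117 to 0.192 (negative without OVA/PBS replicate 3 or PBS/PM replicate 3).

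Exchanging the names turned the sign of Gzma (-0.42), Klrg1 (-0.54) and Ncr1 (-0.24) in OVA/PM against OVA/PBS, of Gzma (0.54), Klrg1 (0.69) and Ncr1 (0.0576) in OVA/PM against PBS/PM, and, by construction, of all 7 genes in OVA/PBS against PBS/PM: Gzma 0.96, Gzmb -0.73, Prf1 0.32, Nkg7 -0.15, Klrg1 1.23, Klrd1 -0.0296 and Ncr1 0.30. Of 330 values of single genes with an array left out, 286 kept their direction and side of the threshold and 6 turned their sign. Of 321 under the other settings, 286 did and 13 turned. Genes near or under 4.93 (Klrg1 in PBS/PBS, Klrk1, Eomes, Gzmk) are limited by their signal.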
